A study of Mus musculus with 14 samples.

Results

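Desmoplakin (Dsp), plakoglobin (Jup), claudin-2 (Cldn2), Crumbs 1 (Crb1), CD44 (Cd44) and CD24a (Cd24a) were read in ribosome-bound mRNA of mouse dopaminergic neurons with and without the transferrin receptor Tfr1. These 6 genes were taken from 18193 genes on the array because earlier results of the same data showed them to differ between the genotypes. All 15 of their probe sets are given, of 34945 probe sets with a single gene symbol. Since the Tfr1-null against control differences at 3 and 10 weeks chose the genes, these differences are described and not tested. Jup did not bear out that choice: its groups overlapped at both ages.

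The data were 14 Affymetrix expression arrays of ventral midbrain from mice of an F2 of 129Sv and C57BL/6, all bred to the RiboTag background, in which an epitope tag on a ribosomal protein lets the ribosomes of a chosen cell type be pulled down with their mRNA. Tfr1-null mice carried a conditional deletion of Tfr1 in dopaminergic neurons, and controls were heterozygous for the Tfr1 allele. At 3 weeks of age, labelled as early in the neurodegeneration, 3 libraries were control and 4 Tfr1-null; at 10 weeks, labelled as late, 4 were control and 3 Tfr1-null. The sources used here name neither the Cre line behind the deletion nor whether replicates were separate animals, so the spread between replicates may be technical. In such samples fewer cells and less mRNA per cell cannot be told apart.

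Desmosomes and tight junctions are best known from epithelia. Desmosomes tie the intermediate filaments of neighbouring cells together, with desmoplakin as the link to the filaments and plakoglobin, a relative of beta-catenin, as the link to the cadherins. Plakoglobin also sits in adherens junctions. Tight junctions seal the space between cells, and claudin-2 forms a channel for small cations and water in leaky epithelia such as the choroid plexus. Crumbs 1 is a transmembrane protein of the apical polarity complex, known for its part in the retina. CD44 is the main receptor for hyaluronan in the matrix, and CD24a is a small glycoprotein held to the membrane by a lipid anchor, made by immature neurons among other cells.

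Values are log2 signals, so 1 unit is a doubling. The arrays had medians of 6.41 to 6.47 at 3 weeks and 7.36 to 7.43 at 10 weeks, so the 2 ages do not share a scale and no gene was compared between ages by its signal. Not above background means, for a group, that each of its libraries read the gene below the 25th percentile of that array. The dopaminergic markers Th, Slc6a3, Slc18a2, Ddc, Nr4a2 and Ret lay at mean percentiles of 97.9 to 99.9 in all 4 groups, En1 at 94.2 to 96.7 and Pitx3 at 59.9 to 73.3. Some markers of glia lay as high, though others lay lower. The oligodendrocyte marker Mbp stood at 99.2 to 99.3 and the astrocyte marker Slc1a2 at 98.9 to 99.3. These levels therefore do not show which cells the mRNA of the 6 genes came from. A male pattern of the Y-linked Kdm5d over Xist marked 1 of the 7 arrays of the younger mice and 7 of the 7 of the older ones. Age, sex and array scale therefore cannot be told apart. At 3 weeks the male pattern was in 1 of 3 control and 0 of 4 Tfr1-null libraries, so sex was not balanced between these groups.

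The labels of 2 libraries are in doubt. In Tfrc, the gene of Tfr1, the probe set for the 5′ end read 9.50 to 9.59 in the 3-week controls and 6.88 to 7.73 in Tfr1-null 3 weeks 2 to 4, but 9.67 in the library titled Tfr1-null 3 weeks 1, whose source name says control. In the older mice it read 9.63 to 10.44 in controls 2 to 4, 7.79 to 9.29 in Tfr1-null and 8.55 in the library titled control 10 weeks 1. The middle of the gene ran the other way: it read 8.80 to 8.86 in the 3-week controls and 10.70 to 10.98 in Tfr1-null 3 weeks 2 to 4, with 8.82 in Tfr1-null 3 weeks 1. In the older mice it read 11.39 to 11.69 in Tfr1-null and 9.17 to 9.86 in controls 2 to 4, with 11.43 in control 10 weeks 1. Each of these 2 libraries thus lay on the side of the other genotype, at both places in the gene. The sources used here do not say which part of the gene was deleted. No library was moved to another group. Each difference below is given over all 14 libraries as labelled and over the 12 without these 2.

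The sequence before the start of a gene is printed as a view of the DNA in front of the transcripts measured here. The genes printed are Dsp, Cd44, Cldn2 and Crb1, whose brightest probe sets did not overlap between genotypes at either age over 12 libraries. Cd24a parted likewise but could not be printed. Over 14 libraries Cldn2 and Crb1 overlapped at both ages and Cd44 at 3 weeks. RefSeq's table for GRCm38.p6 holds 5 of the 6 genes, all but Cd24a. Each line gives the 250 bases before the start, 5′ to 3′ on the gene's strand, in lower case with motif matches in capitals. Dsp lies at chr13:38151044-38151293 (+ strand), Cd44 at chr2:102901666-102901915 (- strand), Cldn2 at chrX:139800558-139800807 (+ strand) and Crb1 at chr1:139377077-139377326 (- strand).

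Dsp: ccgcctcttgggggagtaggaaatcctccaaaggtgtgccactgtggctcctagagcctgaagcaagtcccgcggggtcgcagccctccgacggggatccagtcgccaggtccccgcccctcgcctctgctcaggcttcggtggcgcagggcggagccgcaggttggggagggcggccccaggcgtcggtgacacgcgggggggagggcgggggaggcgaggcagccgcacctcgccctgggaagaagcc
Cd44: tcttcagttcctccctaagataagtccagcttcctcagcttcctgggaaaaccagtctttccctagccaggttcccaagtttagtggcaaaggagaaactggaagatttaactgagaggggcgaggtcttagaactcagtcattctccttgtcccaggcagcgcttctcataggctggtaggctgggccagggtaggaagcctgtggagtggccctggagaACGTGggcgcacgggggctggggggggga
Cldn2: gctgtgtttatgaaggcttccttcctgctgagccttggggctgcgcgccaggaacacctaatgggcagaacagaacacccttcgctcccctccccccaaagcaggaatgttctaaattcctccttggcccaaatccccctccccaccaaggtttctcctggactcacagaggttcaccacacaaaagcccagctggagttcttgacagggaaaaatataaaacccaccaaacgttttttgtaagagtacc
Crb1: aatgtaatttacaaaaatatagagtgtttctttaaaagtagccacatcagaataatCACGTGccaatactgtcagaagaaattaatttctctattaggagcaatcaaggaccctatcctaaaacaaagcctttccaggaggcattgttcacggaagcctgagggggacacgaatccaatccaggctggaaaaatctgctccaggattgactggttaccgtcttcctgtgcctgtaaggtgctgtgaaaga

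Searches were made on both strands for TGANTCA (the AP-1 site), TGACGTCA (the cyclic AMP response element), ACGTG (the core of the hypoxia response element) and CAGGTG (the E-box bound by Snail factors). ACGTG matched in Crb1, where both strands match in one overlapping CACGTG at positions -194 to -189 from the start, and in Cd44 at -29 to -25. That was 2 of 5 genes, beside 16.6% of 32851 windows of this length. TGANTCA, TGACGTCA and CAGGTG, held by 6.7%, 1.5% and 17.2% of all windows, had 0 matches in the 5 windows. The windows differed in composition: Dsp had 72.4% G and C with 22 CG pairs, Jup 62.0% with 13, Cd44 56.4% with 5, Cldn2 52.0% with 4 and Crb1 41.6% with 4. The median window had 52.4% and 6 CG pairs, and the 5 genes ranged from the 14.9th to the 93.6th percentile. A match is a run of letters and not a measured binding site.

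Dsp, the desmosome's link to intermediate filaments, was higher in Tfr1-null at both ages. At 3 weeks its brightest probe set (1435493_at) read 5.22, 4.72 and 4.51 in controls and 5.99, 5.53, 5.83 and 6.67 in Tfr1-null 1 to 4. The groups did not overlap, and the library of doubtful label, at 5.99, lay among the other Tfr1-null libraries. The difference was 1.19 over 14 libraries and 1.20 over 12 (control 4.82 ± 0.36, Tfr1-null 6.01 ± 0.59, SD, n = 3 each).

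At 10 weeks Dsp read 8.97, 5.20, 3.86 and 5.72 in controls 1 to 4 and 9.71, 9.75 and 9.19 in Tfr1-null. The doubtful control 1, at 8.97, stood close to Tfr1-null and far from the other controls, and even so lay below all 3 Tfr1-null libraries. The difference was 3.61 over 14 libraries, a 12.2-fold higher level, and 4.62 over 12 (control 4.93 ± 0.96, Tfr1-null 9.55 ± 0.32, n = 3 each). Within its arrays the probe set stood at a mean percentile of 18.7 in those controls and 71.8 in Tfr1-null, beside 30.6 and 45.5 at 3 weeks. The controls at 10 weeks thus lay near background and the Tfr1-null libraries well above it.

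The other probe sets of Dsp gave different sizes. For 1435494_s_at both genotypes were not above background at 3 weeks. At 10 weeks it read 6.93, 4.64, 4.02 and 5.01 in controls and 8.10, 8.30 and 8.18 in Tfr1-null, a difference of 3.04 over 14 libraries. Over 12 libraries its controls were not above background, so it was at least 2.70 higher. The last, 1427610_at, was not above background in either genotype at 3 weeks nor in the 10-week controls, and was at least 0.15 higher in Tfr1-null at 10 weeks, with overlapping groups. The size of the Dsp difference at 10 weeks therefore rests on the 2 probe sets that carry signal. At 3 weeks it rests on 1435493_at alone.

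Jup, which shares the desmosome with Dsp, has a single probe set (1426873_s_at) and differed little. At 3 weeks it read 8.56, 8.46 and 8.52 in controls and 8.60, 8.81, 8.38 and 8.58 in Tfr1-null, so that the lowest and the highest value both came from Tfr1-null. The difference was 0.08 over both 14 and 12 libraries. At 10 weeks Jup read 9.43, 8.82, 8.12 and 8.99 in controls and 8.89, 9.79 and 9.08 in Tfr1-null. The groups overlapped, with a difference of 0.41 over 14 libraries and 0.61 over 12 (control 8.64 ± 0.46, Tfr1-null 9.25 ± 0.47, n = 3 each). Over 14 libraries it was 0.14 without Tfr1-null 10 weeks 2 and 0.17 without control 10 weeks 3, so single libraries set most of it. Jup lay at mean percentiles of 62.8 to 70.1 in the 4 groups of the 12 libraries, well above background throughout.

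**Figure D1:**
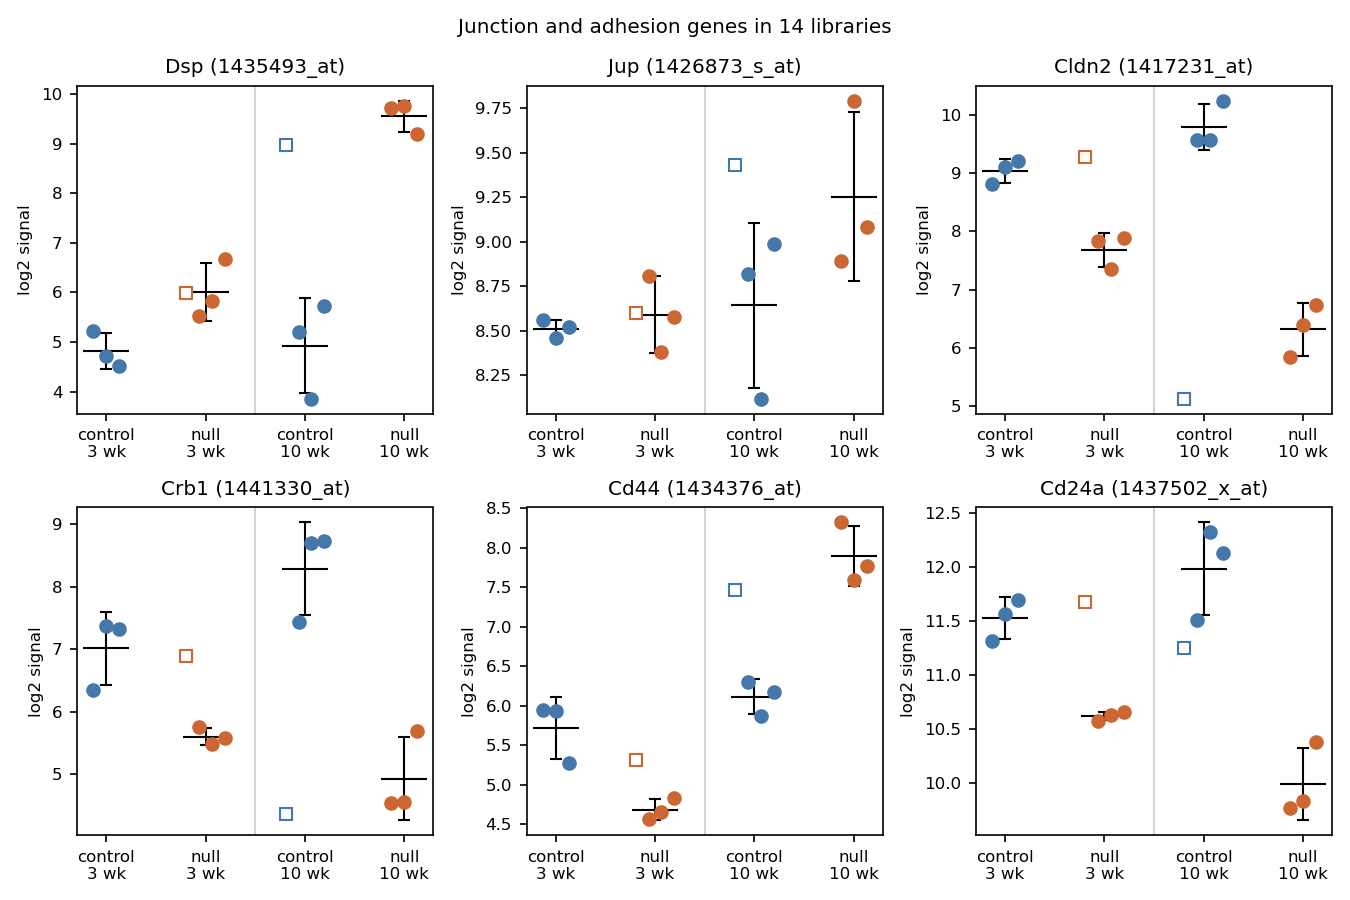
Log2 signal of the brightest probe set of each gene (vertical axis, a separate scale for each panel) in every library, by genotype and age (horizontal axis). Filled circles are libraries, open squares the 2 libraries of doubtful label, and bars the mean ± SD of the filled circles (n = 3). Dsp and Cd44 at 10 weeks stand higher in Tfr1-null and Cldn2, Crb1 and Cd24a lower at both ages, while Jup overlaps.

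Cldn2, the cation channel of leaky tight junctions, was lower in Tfr1-null at both ages once the doubtful libraries were left out. At 3 weeks its brightest probe set (1417231_at) read 8.81, 9.11 and 9.21 in controls, 9.28 in the doubtful Tfr1-null 1 and 7.83, 7.35 and 7.88 in Tfr1-null 2 to 4. The doubtful library was thus the highest of all 7 and made the groups overlap. The difference was -0.96 over 14 libraries and -1.35 over 12 (control 9.04 ± 0.21, Tfr1-null 7.69 ± 0.29, n = 3 each).

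At 10 weeks Cldn2 read 9.57, 9.57 and 10.25 in controls 2 to 4 and 5.83, 6.38 and 6.73 in Tfr1-null, while the doubtful control 1 read 5.12, the lowest of all 7. The difference was -2.32 over 14 libraries and -3.48 over 12 (control 9.80 ± 0.40, Tfr1-null 6.31 ± 0.46, n = 3 each), an 11.2-fold lower level. The mean percentile was 74.6 in controls and 36.5 in Tfr1-null in those 12 libraries, beside 74.8 and 61.4 at 3 weeks. The dimmer probe set 1417232_at ran the same way with smaller differences, -0.24 and -0.68 over 14 libraries and -0.42 and -0.85 over 12, and its groups overlapped at 10 weeks.

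Crb1, of the apical polarity complex, followed Cldn2 closely. At 3 weeks 1441330_at read 6.35, 7.38 and 7.32 in controls, 6.89 in the doubtful Tfr1-null 1 and 5.76, 5.48 and 5.58 in Tfr1-null 2 to 4. The difference was -1.09 over 14 libraries and -1.41 over 12 (control 7.01 ± 0.58, Tfr1-null 5.60 ± 0.14, n = 3 each). Control 1 lay nearest to Tfr1-null but still above every library of it except the doubtful one.

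At 10 weeks Crb1 read 7.44, 8.70 and 8.74 in controls 2 to 4, 4.36 in the doubtful control 1 and 4.54, 4.56 and 5.70 in Tfr1-null. The difference was -2.37 over 14 libraries and -3.36 over 12 (control 8.29 ± 0.74, Tfr1-null 4.94 ± 0.67, n = 3 each), and 2 of the 3 Tfr1-null libraries lay under the 25th percentile of their arrays. The second probe set, 1421451_at, differed by -0.34 and -0.18 over 14 libraries and by -0.50 and -0.31 over 12 at 3 and 10 weeks. Its groups overlapped at 10 weeks, so the large difference at that age rests on 1 of 2 probe sets. Where the probe sets lie in the transcripts was not analysed here.

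Cd44, the hyaluronan receptor, was the gene whose difference turned between the ages. At 3 weeks 1434376_at read 5.95, 5.93 and 5.27 in controls and 5.31, 4.57, 4.65 and 4.83 in Tfr1-null 1 to 4, a difference of -0.88 over 14 libraries and -1.03 over 12 (control 5.72 ± 0.39, Tfr1-null 4.68 ± 0.13, n = 3 each). Only the doubtful Tfr1-null 1 overlapped the controls. At 10 weeks it read 7.46, 6.30, 5.87 and 6.17 in controls 1 to 4 and 8.32, 7.59 and 7.77 in Tfr1-null. The doubtful control 1 was the highest control, and all 3 Tfr1-null libraries lay above it. The difference was 1.44 over 14 libraries and 1.78 over 12 (control 6.11 ± 0.22, Tfr1-null 7.89 ± 0.38, n = 3 each).

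The probe set 1423760_at of Cd44 showed the same turn, at -0.48 and 1.51 over 14 libraries. Over 12 libraries it was at least 0.36 lower at 3 weeks, as Tfr1-null was not above background, and 1.79 higher at 10 weeks. Another, 1452483_a_at, differed by -0.16 with overlap at 3 weeks and by 0.64 without overlap at 10 weeks over 14 libraries, and 1443265_at, near background throughout, by 0.02 at 10 weeks. In mean percentile of its arrays 1434376_at stood at 42.0 in control and 29.2 in Tfr1-null at 3 weeks, and at 33.9 and 55.1 at 10 weeks, over 12 libraries.

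Cd24a, the lipid-anchored glycoprotein, was lower in Tfr1-null in all 3 of its probe sets. At 3 weeks 1437502_x_at, whose probes by the array's naming may also bind other transcripts, read 11.32, 11.57 and 11.70 in controls, 11.68 in the doubtful Tfr1-null 1 and 10.58, 10.63 and 10.66 in Tfr1-null 2 to 4. The difference was -0.64 over 14 libraries and -0.91 over 12 (control 11.53 ± 0.20, Tfr1-null 10.62 ± 0.04, n = 3 each). The other 2 probe sets, 1448182_a_at and 1416034_at, gave nearly the same, -0.62 and -0.64 over 14 libraries and -0.89 and -0.90 over 12.

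At 10 weeks 1437502_x_at read 11.25, 11.51, 12.33 and 12.13 in controls 1 to 4 and 9.77, 9.83 and 10.38 in Tfr1-null. Here the doubtful control 1 lay with the controls, though it was the lowest of them. The difference was -1.81 over 14 libraries and -2.0 over 12 (control 11.99 ± 0.43, Tfr1-null 9.99 ± 0.34, n = 3 each), and the groups did not overlap either way. The probe set 1448182_a_at differed by -1.49 and -1.79 without overlap. For 1416034_at, which read 9.19, 9.50, 10.59 and 10.21 in controls and 9.90, 9.14 and 9.13 in Tfr1-null, the difference was -0.48 and -0.71 and the groups overlapped. The 3 probe sets thus gave one size at 3 weeks and different sizes at 10 weeks.

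**Figure D2:**
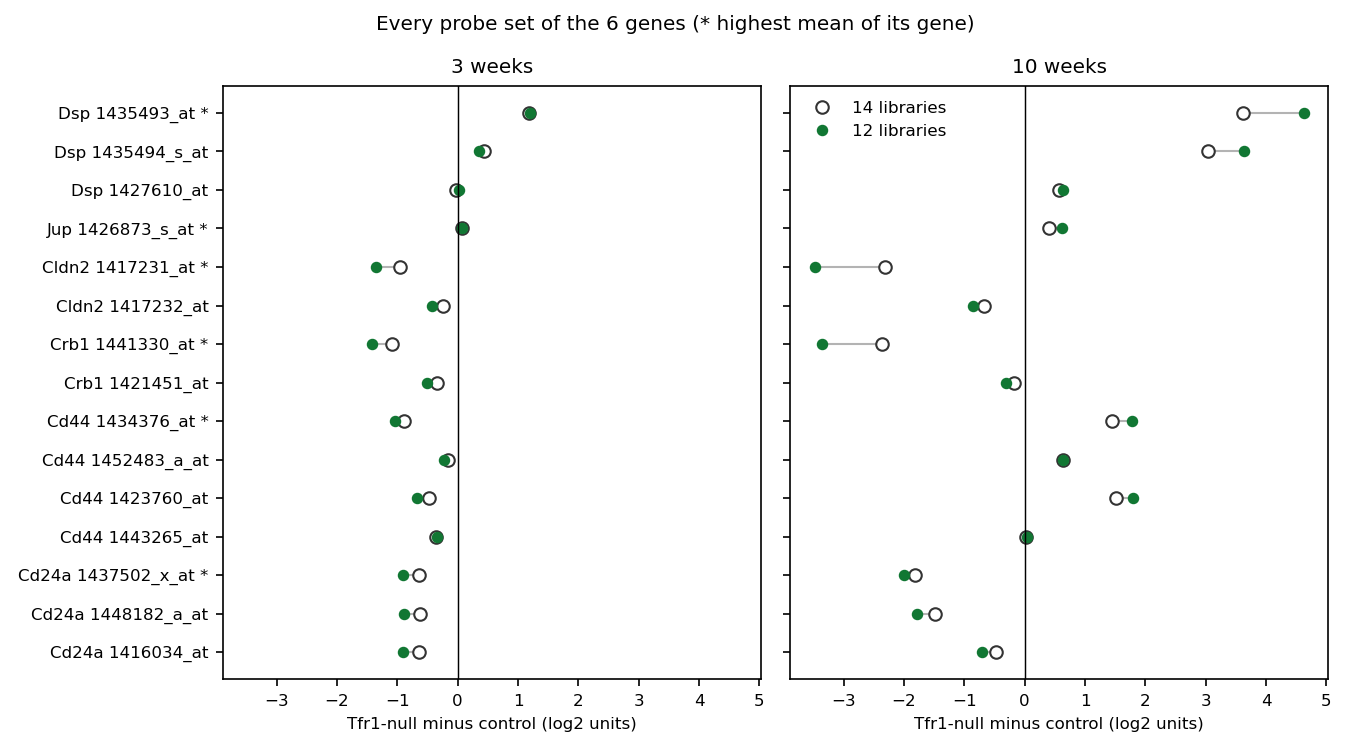
Difference between the Tfr1-null and control means (horizontal axis, log2 units) for each of the 15 probe sets (vertical axis) at 3 weeks (left) and 10 weeks (right). Open circles use 14 libraries as labelled and filled circles the 12 without the doubtful ones. Leaving these out moved most differences away from 0 and turned the sign only of Dsp 1427610_at at 3 weeks, which was not above background.

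By the brightest probe set of each gene, Tfr1-null and control did not overlap in 1 of the 6 genes at 3 weeks (Dsp) and in 3 of 6 at 10 weeks (Dsp, Cd44 and Cd24a) over 14 libraries, where 8.16% and 10.1% of all genes did not. Over 12 libraries it was 5 of 6 at each age, all but Jup, where 25% and 22.5% of all genes did not. Since the genes were chosen on these contrasts, the counts say nothing more than that.

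The 2 doubtful libraries did not follow one group in every gene. By the brightest probe set, the library titled Tfr1-null 3 weeks 1 lay nearer the mean of the other 3-week controls in 4 genes (Cldn2, Crb1, Cd44 and Cd24a) and nearer that of the other Tfr1-null libraries in 2 (Dsp and Jup). The library titled control 10 weeks 1 lay nearer the Tfr1-null mean in 5 genes and nearer the control mean in Cd24a. In Jup at 3 weeks the 2 means differed by only 0.08, so its side carries little weight, whereas in Dsp at 3 weeks they differed by 1.20.

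Across libraries Cldn2, Crb1 and Cd24a varied together and Dsp against them, while Jup and Cd44 went with Dsp less closely. After each age mean was subtracted, Cldn2 and Crb1 correlated at r = 0.97 over 14 libraries, Crb1 and Cd24a at 0.87 and Cldn2 and Cd24a at 0.80. Dsp ran against these at -0.87 with Cldn2, -0.91 with Crb1 and -0.85 with Cd24a, and with Jup at 0.72 and Cd44 at 0.70. These points share the same libraries and genotype split, on which the genes were chosen, so the values are a description.

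By the same measure, the named genes most like each of the 6 were listed with no regard to function. For Cldn2 they were Aldh1a7 (r = 0.978), Ndnf (0.974) and Arhgap24 (0.974), which differed by -2.75, -1.34 and -0.89 at 10 weeks over 12 libraries. For Crb1 they were Mpv17l2 (0.968), Cldn2 itself (0.966) and Slc6a19 (0.960). Over 12 libraries the amino acid transporter gene Slc6a19 was not above background in Tfr1-null at 10 weeks and at least 1.27 lower there. For Dsp they were Agap1 (0.965), Cd109 (0.962) and the endopeptidase gene Ecel1 (0.955), and Ecel1 was 0.68 higher at 3 weeks and 4.24 higher at 10 weeks over 12 libraries. For Cd24a they were Alkbh6 (0.961), Tspan17 (0.957) and Tmem207 (0.956), with differences of -0.90, -1.24 and -2.70 at 10 weeks over 12 libraries. For Jup they were Lyst (0.947), Polr2a (0.937) and Msh6 (0.927). Cd44 had the least close ones, at 0.916 for Atp5a1, 0.879 for Necab1 and 0.878 for Akap6. Each shared its change of sign over 12 libraries. Necab1 stood at -0.43 at 3 weeks and 0.62 at 10 weeks, Atp5a1 at -0.07 and 0.14, and Akap6 at -0.18, with overlap, and 0.97.

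The other genes of these structures were listed by what they are known to do and were tested with limma over all 18193 genes, with Benjamini-Hochberg adjusted p under 0.05 counted as called. In 7 lists 152 other genes were measured. Over 14 libraries 0 of them were called at 3 weeks and 1 at 10 weeks, where 0% and 1.21% of all genes were called. At 3 weeks 10 of the 152 had an unadjusted p under 0.05, beside 849 of all 18193 genes. Over 12 libraries 2 were called at 3 weeks and 20 at 10 weeks, beside 1.84% and 11.1% of all genes. At 3 weeks 1 was higher and 1 lower, beside 0.682% and 1.16% of all genes, and at 10 weeks 10 were higher and 10 lower, beside 4.73% and 6.34%. A share of 20 in 152 lies near that of all genes. Leaving out control 10 weeks 1 alone also gave 20 calls at 10 weeks. The 2 doubtful libraries were left out for their Tfrc values, a choice known from earlier results.

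In the desmosome list, 0 of 13 other genes, among them plakophilins, desmogleins and desmocollins, were called at either age over 14 or 12 libraries, with a median difference of 0.01 at 3 weeks and 0.03 at 10 weeks over 12 libraries (0.01 and -0.01 over all genes). Those with the smallest p were, at 3 weeks over 12 libraries, Evpl, the filament linker envoplakin (-0.38, SE 0.10, adjusted p = 0.108), and Perp, a desmosomal membrane protein (-0.47, SE 0.19, adjusted p = 0.401). At 10 weeks that gene was Pkp2, plakophilin 2, at 0.67 (SE 0.35, adjusted p = 0.263).

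In the tight junction list, 1 of 31 other genes rose and 3 fell at 10 weeks over 12 libraries, with a median difference of -0.06, and 0 were called at 3 weeks, with a median of -0.02. Cxadr, the coxsackievirus and adenovirus receptor of cell junctions, rose by 0.90 (SE 0.19, adjusted p = 0.0124). Cgn, the junction plaque protein cingulin, fell by 0.77 (SE 0.15, adjusted p = 0.00963). Both kept their call when any of the 12 libraries was left out, but over 14 libraries they differed by 0.70 and -0.69 at adjusted p = 0.172 and 0.0832. Cldn1, a sealing claudin, and Jam2, an adhesion molecule of the junction, were at -0.80 and -0.89, and their calls were lost in 4 and 10 of the 12 fits that left out a library (adjusted p up to 0.0954 and 0.131). By its probe set of lowest mean, Cldn1 stood at 0.05 over 14 libraries, so its direction depends on the probe set.

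In the apical polarity list, 1 of 19 other genes rose and 1 fell at 10 weeks over 12 libraries, with 0 called at 3 weeks (medians 0.01 and 0.01). Both encode Lin7 scaffolds, which bind the Crumbs partner Pals1. Lin7c rose by 0.72 (SE 0.14, adjusted p = 0.00865) and Lin7a fell by 0.66 (SE 0.14, adjusted p = 0.0147), and both calls held whichever of the 12 libraries was left out. Over 14 libraries they stood at 0.61 and -0.48 with adjusted p = 0.0596 and 0.255.

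Among cadherins and catenins, 4 of 22 other genes rose and 2 fell at 10 weeks over 12 libraries, with a median of 0.09, and 1 fell at 3 weeks, with a median of -0.10. The nectin gene Nectin3, an adhesion molecule of adherens junctions, read 10.36, 10.51 and 10.73 in controls 2 to 4 and 9.08, 9.61 and 9.34 in Tfr1-null at 10 weeks, and 9.37 in the doubtful control 1. It fell by 1.19 (SE 0.14, adjusted p = 0.000562), and the call held without any one of the 12 libraries and with the 10-week libraries fitted alone (adjusted p = 0.0386). At 3 weeks it fell by 0.67 (SE 0.14, adjusted p = 0.0372), a call lost in 7 of 12 fits leaving out a library, with adjusted p up to 0.174. Over 14 libraries Nectin3 stood at -0.47 and -0.90, with adjusted p = 1.00 and 0.123. Cdh8, a cadherin of neurons, fell by 0.52 (SE 0.10, adjusted p = 0.00886) at 10 weeks and kept its call without any one library. The rises of N-cadherin (Cdh2, 0.71), Cdh4 (0.74), Nectin1 (0.59) and Nectin2 (1.04) were each lost without at least 3 single libraries, with adjusted p up to 0.0829. By the probe set of lowest mean over 14 libraries, Nectin2 stood at -0.19 and Cdh4 at -0.32, the other direction. Cdh8 and Nectin1 are named because they complete the 6 calls of this list, after their values were seen.

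Around CD44 and hyaluronan, 1 of 26 other genes rose and 2 fell at 10 weeks over 12 libraries (median -0.02), and 1 rose at 3 weeks (median 0.03). Hapln1, which links hyaluronan to proteoglycans, fell by 2.22 (SE 0.44, adjusted p = 0.00982) and kept its call without any one of the 12 libraries. It read 9.51, 9.41 and 9.80 in controls 2 to 4 and 6.20, 7.51 and 8.35 in Tfr1-null. The brain proteoglycan gene Bcan fell by 1.5 (SE 0.38, adjusted p = 0.0304), but it was high in control 10 weeks 3 (11.39, beside 9.36 and 10.14 in 2 and 4) and its call was lost without any one of the 3 Tfr1-null libraries (adjusted p up to 0.0846). Ezr, which ties CD44 to actin, rose by 1.52 (SE 0.33, adjusted p = 0.0154), with adjusted p = 0.0542 without Tfr1-null 10 weeks 3. At 3 weeks the link protein gene Hapln4 rose by 1.29 (SE 0.25, adjusted p = 0.0242), and its call was lost without control 3, Tfr1-null 3 or Tfr1-null 4 of that age (adjusted p up to 0.11). Over 14 libraries 0 of these 4 were called, with adjusted p of 0.0684 to 0.146 at 10 weeks and 1.00 for Hapln4.

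Among CD24 partners and adhesion molecules of the immunoglobulin type, 1 of 22 other genes rose and 1 fell at 10 weeks over 12 libraries, and 0 were called at 3 weeks. Cadm3, a synaptic cell adhesion molecule, was the 1 gene of the 152 called over 14 libraries. It read 12.95, 12.60, 12.69 and 12.76 in controls 1 to 4 and 13.24, 13.57 and 13.25 in Tfr1-null at 10 weeks, with no overlap. It rose by 0.60 (SE 0.10, adjusted p = 0.0346) over 14 libraries and by 0.67 (SE 0.10, adjusted p = 0.00259) over 12. The call over 14 libraries held in 3 of 14 fits that left out a library, those without control 10 weeks 1, Tfr1-null 3 weeks 1 or Tfr1-null 10 weeks 2, with adjusted p up to 0.0674 in the others. The call over 12 libraries held in all 12 such fits. Mcam, the melanoma cell adhesion molecule, fell by 0.64 (SE 0.14, adjusted p = 0.0143) over 12 libraries. Among integrins, the receptors for matrix, 2 of 19 rose and 1 fell at 10 weeks over 12 libraries, with Itgav at 0.76 (SE 0.16, adjusted p = 0.014) the only one whose call held without any one library. Itgb5 stood at -0.96 and Itga5 at 0.69, and their calls were lost in 8 and 7 of the 12 fits (adjusted p up to 0.11 and 0.0956).

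Of the 20 calls at 10 weeks over 12 libraries, 10 held without any one of these libraries: 4 higher (Cadm3, Cxadr, Itgav and Lin7c) and 6 lower (Cdh8, Cgn, Hapln1, Lin7a, Mcam and Nectin3). With the 10-week libraries fitted alone, 2 of these 10 held, Cgn and Nectin3. Over 14 libraries 1 of these 10 was called, Cadm3. Among those that were not, the adjusted p by limma was 0.269 for Cdh8, 0.162 for Itgav and 0.0665 for Mcam. The difference of the genotype effect between the ages passed the test in 0 of 152 genes over 14 and over 12 libraries in limma, while 0% and 0.286% of all genes passed. At an unadjusted p under 0.05 there were 15 and 25 of the 152, beside 1360 and 2220 of all 18193 genes.

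**Figure D3:**
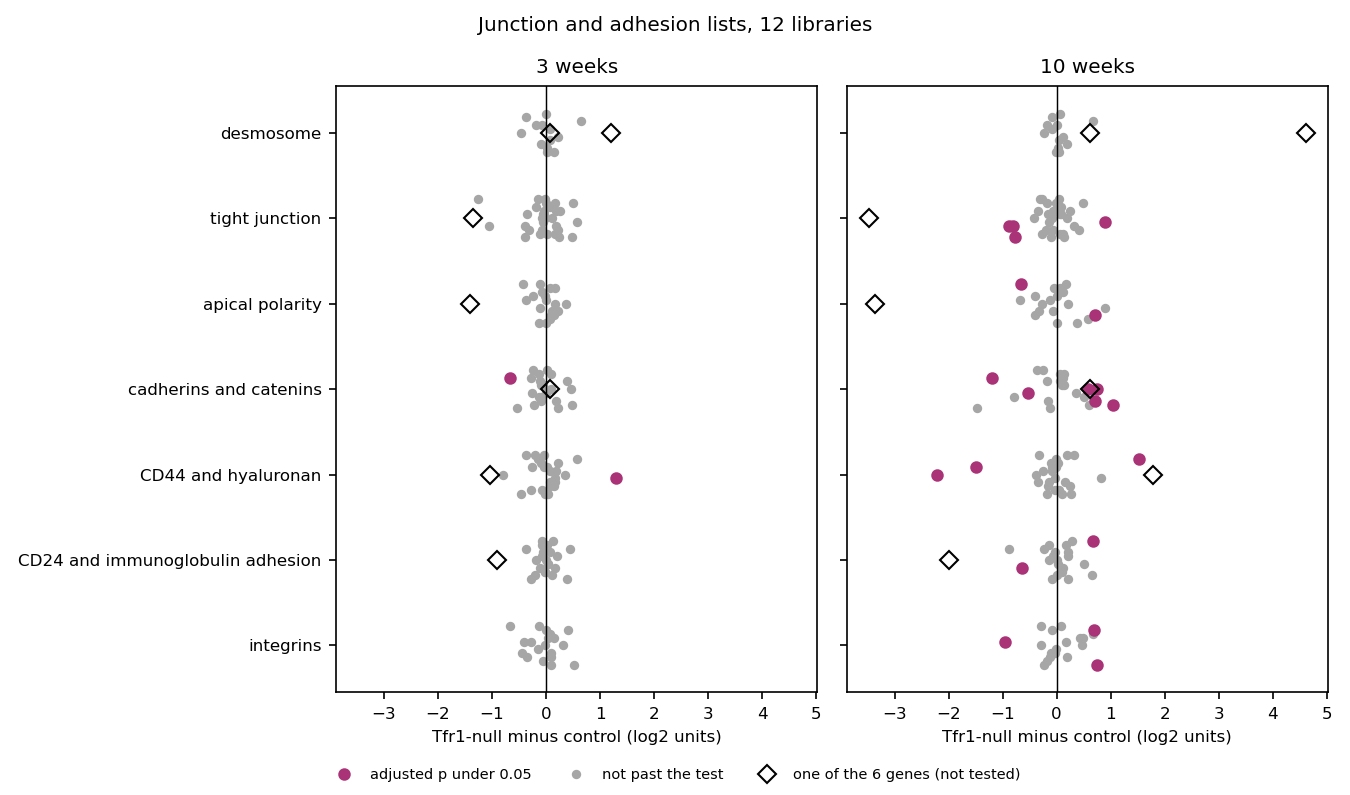
Difference between Tfr1-null and control (horizontal axis, log2 units, 12 libraries) for the genes of the 7 junction and adhesion lists (vertical axis) at 3 and 10 weeks. Coloured dots passed limma at adjusted p under 0.05, grey dots did not, and diamonds are the 6 genes, which were not tested. Of the 152 other genes, 2 are coloured at 3 weeks and 20 at 10 weeks, and the diamonds were chosen on these contrasts.

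Markers of other cells were read beside these genes, since several of the 6 are also made outside neurons. The 8 microglia and macrophage markers had a summed log2 signal of 10.47 to 10.66 in control and 10.36 to 10.83 in Tfr1-null at 3 weeks over 14 libraries. At 10 weeks it was 11.81, 11.58 and 10.90 in controls 2 to 4, 12.89 in the doubtful control 1 and 12.72, 12.03 and 12.25 in Tfr1-null. Like Cd44, the sum was higher in Tfr1-null than in controls 2 to 4. Control 1 was the highest library in the sum, whereas in Cd44 it lay below every Tfr1-null library. The lysosomal gene Cd68 was the 1 of 8 called over 12 libraries by limma. It was 2.01 higher at 3 weeks (SE 0.15, adjusted p = 7.87e-05) and 3.87 higher at 10 weeks (SE 0.15, adjusted p = 2.72e-07). Every other marker of the list had a lower mean in Tfr1-null at 3 weeks over 12 libraries, from -0.03 (Cx3cr1) to -0.38 (Itgam). At 10 weeks Aif1 (-0.34) and Itgam (-0.15) were lower, and the rest besides Cd68 were 0.27 (Tmem119) to 0.92 (C1qa) higher. Without Cd68 the sum at 10 weeks was 10.83 to 11.77 in controls 2 to 4 and 11.33 to 12.36 in Tfr1-null, and these overlap. No marker of the list was below background in a whole group. The 8 astrocyte markers summed to 14.02 to 14.49 in controls 2 to 4 and 14.26 to 14.68 in Tfr1-null at 10 weeks, with Sox9 alone called (1.14 higher, adjusted p = 0.0327). The part of these cells in the Cd44 difference was not tested.

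The choroid plexus makes much claudin-2. Of its 8 markers 0 were called over 14 or 12 libraries at either age, and Folr1 and Slc4a5 were not above background in any group but for Folr1 in Tfr1-null at 10 weeks. Their summed log2 signal at 3 weeks was 9.38 to 9.43 in control, 9.68 in the doubtful Tfr1-null 1 and 9.09 to 9.24 in Tfr1-null 2 to 4. As in Cldn2, Tfr1-null 2 to 4 lay below the controls and the doubtful library above them. Within these groups the order of the libraries differed from that in Cldn2. At 10 weeks it was 10.13 to 10.51 in controls 2 to 4 and 10.09 to 10.59 in Tfr1-null, with overlap where Cldn2 differed by -3.48. Otx2, a transcription factor that some midbrain dopaminergic neurons also make, gave 27.6% to 67.0% of that sum, by library, at 10 weeks. Without Otx2, chosen after its level was seen, the other 7 summed to 8.06 to 8.21 in control and 7.88 to 7.96 in Tfr1-null 2 to 4 at 3 weeks. At 10 weeks they summed to 9.11 to 10.05 in controls 2 to 4 and 8.73 to 9.11 in Tfr1-null. The 10.05 came from control 10 weeks 3, beside 9.27 and 9.11 in controls 2 and 4. Over 12 libraries at 10 weeks, no Tfr1-null library reached the controls in Ttr, the thyroid hormone carrier transthyretin (mean 8.42 in control and 7.67 in Tfr1-null, adjusted p = 0.152 by limma), or in Clic6, a chloride channel family protein (6.21 and 5.3, adjusted p = 0.108). Of the 8 markers, 5 had a lower mean in Tfr1-null at that age over 12 libraries. Besides Ttr and Clic6 these were Kcnj13 (-0.44), Aqp1 (-0.28) and Kl (-0.17), each with overlapping groups, and Aqp1 was not above background in Tfr1-null. Otx2, Slc4a5 and Folr1 did not, with differences of 0.50, 0.47 and 0.02. Slc4a5 was not above background in either genotype, nor Folr1 in controls, so these give no direction. Ttr, Clic6, Kcnj13, Aqp1 and Kl thus lay in the direction of Cldn2 and Otx2 did not. The part of the choroid plexus markers in the lower Cldn2 signal was not tested.

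The summed signal of the dopaminergic markers was also lower in Tfr1-null once the doubtful libraries were left out. The 8 summed to 15.96 to 16.01 in control, 15.96 in the doubtful Tfr1-null 1 and 15.81 to 15.89 in Tfr1-null 2 to 4 at 3 weeks. At 10 weeks the sum was 16.75 to 16.84 in controls 2 to 4, 16.46 in the doubtful control 1 and 16.46 to 16.73 in Tfr1-null. Of the 8, Ddc, the enzyme that makes dopamine from L-DOPA, was the 1 called, at 10 weeks over 12 libraries (-0.32, SE 0.09, adjusted p = 0.0488 by limma), and 0 were called at 3 weeks or over 14 libraries. Pitx3, a transcription factor of these neurons, had a mean of 10.24 in control and 8.38 in Tfr1-null at 10 weeks over 12 libraries (-1.86, SE 0.69, adjusted p = 0.111). In that comparison 5 of the 8 markers had a lower mean in Tfr1-null. Ret, Nr4a2 and En1 did not, with differences of 0.19, 0.10 and 0.01. The part of these markers in the lower Cldn2, Crb1 and Cd24a was not tested.

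At 3 weeks the 8 ependymal markers summed to 9.64 to 9.96 in control and 9.56 to 9.59 in Tfr1-null 2 to 4. The doubtful Tfr1-null 1 stood at 9.76, so the groups overlapped over 14 libraries. At 10 weeks over 12 libraries they summed to 10.64 to 10.86 and 10.44 to 10.67. Dynlrb2 alone was called (a difference of -2.15 at 10 weeks, adjusted p = 0.0133 by limma), where the median difference of the list was -0.11. The part of the ependymal markers in the lower Cldn2, Crb1 and Cd24a at 3 weeks was not tested. Meningeal, endothelial, oligodendrocyte, precursor and lymphocyte lists had 0 markers called at either age, over 14 or 12 libraries.

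**Figure D4:**
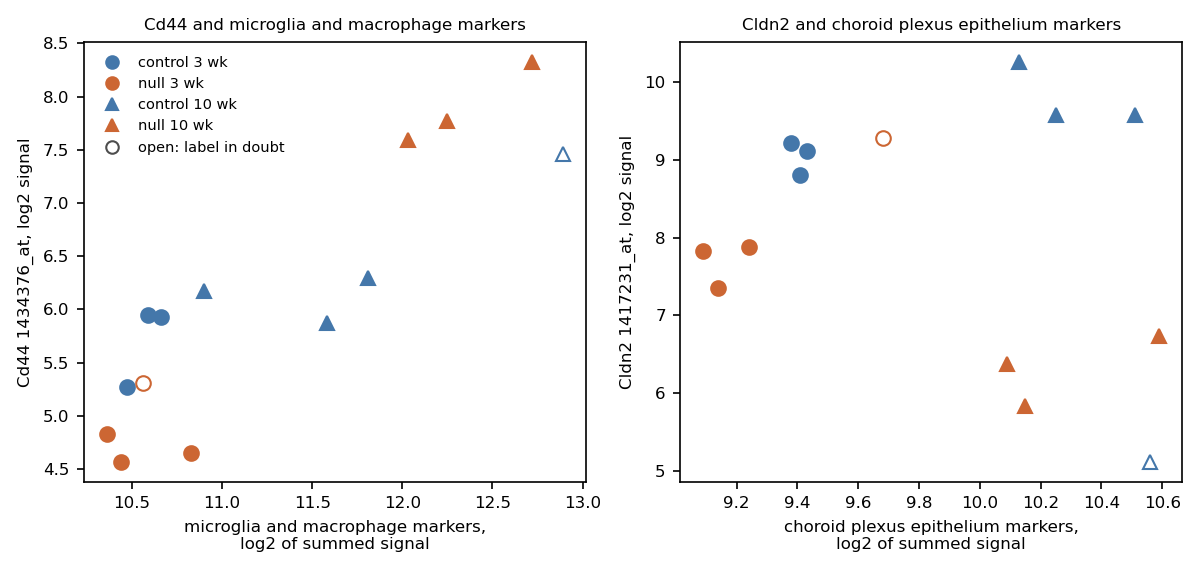
Left, Cd44 (vertical axis, log2 signal) against the summed signal of 8 microglia and macrophage markers (horizontal axis, log2). Right, Cldn2 against 8 choroid plexus markers. Circles are 3-week and triangles 10-week libraries, and open symbols those of doubtful label. At 10 weeks the Tfr1-null libraries lie to the right of controls 2 to 4 in the microglia markers, and overlap them in the choroid plexus markers.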

How the data were processed

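Ribosome-bound mRNA from 14 ventral midbrain lysates was amplified from 50 ng of RNA and read on Affymetrix arrays, per the labels' protocols. The deposited table holds log2 values of 45101 probe sets, made by the authors with RMA in Partek 6.5, per the submitters' processing notes. Of these, 34958 have a single gene symbol in the platform annotation, 932 several and 9211 none. After 13 control probe sets were left out, each of 18193 genes was read by its probe set of highest mean. Groups were fitted with limma 3.58.1 in R 4.3.3 as 4 group means, with Benjamini-Hochberg adjustment over all genes and a threshold of 0.05; the script was tested on simulated data. The number of arrays limits the precision.

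The 6 genes and all lists were chosen with earlier results of these data known, as was leaving out the 2 doubtful libraries. Named were every probe set of the 6 genes, up to 4 called genes per list and age by size (or the 2 of smallest p), the 3 genes most like each of the 6, and Tfrc. Alternatives were the 12 libraries, each library left out, the replicate number as a block, each age alone, other probe sets, quantile normalization, a filter on dim genes, array weights and an intensity trend. Promoter windows came from RefSeq on GRCm38.p6. Same-numbered libraries correlated at -0.034 to 0.088, so numbers were not taken to pair them.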

Additional observations from a re-analysis of the deposited data

Results flagged for a closer look

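In groups of 4 libraries, 8 of 36 had a library set apart from the other 3 by more than Dixon's 95% value. The probe sets read were those of the 6 genes, chosen on genotype, and of Tfrc, for which the libraries were doubted. Probe sets of the same gene also share libraries. The count therefore cannot be set against the 1 in 20 that chance gives. In 7 of these it was the library titled Tfr1-null 3 weeks 1. It was the highest of its group in Cldn2 1417232_at at 6.02, in Cd24a 1437502_x_at at 11.68, in Cd24a 1448182_a_at at 11.07 and in Cd24a 1416034_at at 10.57. It was the lowest in the Tfrc middle probe set at 8.82, in the Tfrc 3′ probe set at 9.19 and in Dsp 1427610_at at 3.58, which was not above background. The library titled control 10 weeks 1 was the lowest of its group in Cldn2 1417231_at at 5.12.

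Cd44 ran opposite ways at the 2 ages over 12 libraries, with every Tfr1-null library below the controls at 3 weeks and above them at 10 weeks. The difference was -1.03 and 1.78 for 1434376_at, and -0.68 and 1.79 for 1423760_at. At 3 weeks Tfr1-null was not above background in 1423760_at, so the -0.68 stands only for a value at least 0.36 lower. The change between ages was not tested.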

How the results depend on the processing

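Over 14 libraries 0 genes were called at 3 weeks, 220 at 10 weeks and 0 for the difference between ages. Over 12 libraries these were 335, 2015 and 52, and among the other adhesion genes 2 and 20 in place of 0 and 1. With array weights 589 and 0 genes were called at 3 and 10 weeks, and 5 and 0 adhesion genes. At 10 weeks each age alone gave 0 genes, the probe set of lowest mean 25 and the mean of all probe sets 86, each with 0 adhesion genes. With the replicate block 3 genes and 0 adhesion genes were called at 10 weeks. Chosen after seeing the data, the 12 libraries with the replicate block gave 234, 1077 and 4 genes and 9 adhesion genes at 10 weeks, and with each age alone 918 genes and 13 adhesion genes at 3 weeks, and 244 genes and 2 adhesion genes at 10 weeks. Each age alone gives no value for the difference. The causes were not tested.

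Leaving out 1 library of 14 gave 0 to 55 genes at 3 weeks, 5 to 1924 at 10 weeks and 0 to 48 for the difference, with 0 to 20 adhesion genes at 10 weeks. The highest counts at 10 weeks, 1924 and 20, and the 48 for the difference came without control 10 weeks 1, and the 55 at 3 weeks without Tfr1-null 3 weeks 1. Of the 14 libraries, 12 moved the 220 genes by over 1.5 times, all but Tfr1-null 3 weeks 1 (164) and Tfr1-null 10 weeks 2 (296), and 11 of these brought it down, to 5 to 66. Leaving out 1 of 12 gave 205 to 412, 1425 to 2128 and 9 to 109 genes, and 0 to 3, 10 to 21 and 0 to 1 adhesion genes. The sign turned with the probe set of lowest mean for Dsp at 3 weeks (-0.02, not above background), Itgav at 3 weeks (-0.07), Cldn1 (0.05), Nectin2 (-0.19) and Cdh4 (-0.32) at 10 weeks, and for Jup at 3 weeks over 12 libraries without Tfr1-null 2 (-0.03, beside up to 0.19 without Tfr1-null 3). Signal near background limits Dsp at 3 weeks and in the 10-week controls, and Crb1 in Tfr1-null at 10 weeks.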

Other observations

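Among lists with no call at 3 weeks, the genes of smallest p over 12 libraries in limma included Jam2 at -1.05 (SE 0.25, adjusted p = 0.0716), Scrib, a polarity scaffold, at 0.38 (SE 0.11, adjusted p = 0.148), Thy1 at -0.37 (SE 0.10, adjusted p = 0.134) and Icam5 at 0.39 (SE 0.11, adjusted p = 0.156). For the difference of the genotype effect between ages, Cgn stood at -1.01 (SE 0.21, adjusted p = 0.0989) over 12 libraries and at -0.77 (adjusted p = 0.588) over 14.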
